A study of Mus musculus with 4 samples.

Results

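The genes described here are 10 regulators of spermatogonia and of their switch to meiosis: Stra8, Meioc, Ythdc2, Rbm46, Sohlh1, Sohlh2, Dmrt1, Dmrtb1, Id4 and Kit. They were chosen by symbol from their known roles, with earlier results of these data known. All 10 have a row among the 24388 gene symbols measured. Poly(A) RNA was sequenced from C57BL/6 spermatocyte suspensions of an Np95 knockout (2 libraries) and of a control (2 libraries). Np95, gene symbol Uhrf1, recruits the maintenance DNA methyltransferase to newly replicated DNA, and the study asked how maintenance methylation set before meiosis bears on meiotic prophase. The table's column headings abbreviate the knockout as cKO, and the labels name neither a Cre driver nor the deleted part. The genotype of the control animals is given only as control. The age of every library reads 21 dpc, an abbreviation that the labels do not spell out. Tubules were minced, treated with accutase and passed through a mesh, with no sorting step named, so other testis cells can be present.

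In the mouse testis, spermatogonia either renew themselves or start to differentiate, and retinoic acid then prompts them to enter meiosis. ID4 marks stem spermatogonia, the partner factors SOHLH1 and SOHLH2 drive differentiation, and KIT is the receptor that differentiating spermatogonia gain. DMRT1 holds spermatogonia out of meiosis, DMRTB1 (also called DMRT6) acts later at the step from mitosis to meiosis, and STRA8 is the retinoic acid target that starts the meiotic programme. MEIOC, YTHDC2 and RBM46 are RNA regulators that work together to turn down the mitotic programme once meiosis has begun.

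Np95 acts at CpG sites, so the CpG sites of the promoters are shown for the tested regulators with the 2 highest and the 2 lowest log2 fold changes of RPKM + 1. Kit, which was not tested at the filter used, is described by its counts. The windows are the 250 bases before the transcription start, from RefSeq on GRCm38.p6, whereas the submitters' processing notes name mm9 for the deposited values. Windows matched by symbol are described for 8 of the 10 members. None was found by symbol for Dmrt1, and no window of Ythdc2 was used, which does not mean that its symbol had no match. Capitals mark CpG dinucleotides, and each line is read 5′ to 3′ on the gene's strand.
Stra8: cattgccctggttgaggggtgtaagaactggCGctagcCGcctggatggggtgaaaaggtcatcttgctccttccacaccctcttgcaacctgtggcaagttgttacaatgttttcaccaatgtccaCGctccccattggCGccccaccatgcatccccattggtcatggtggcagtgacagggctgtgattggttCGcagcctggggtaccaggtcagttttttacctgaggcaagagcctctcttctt
Sohlh1: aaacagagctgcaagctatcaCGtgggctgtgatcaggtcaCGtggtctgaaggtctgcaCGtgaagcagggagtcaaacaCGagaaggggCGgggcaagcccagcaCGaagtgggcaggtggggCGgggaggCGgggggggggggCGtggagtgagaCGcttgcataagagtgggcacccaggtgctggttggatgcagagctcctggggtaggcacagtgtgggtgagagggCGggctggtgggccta
Dmrtb1: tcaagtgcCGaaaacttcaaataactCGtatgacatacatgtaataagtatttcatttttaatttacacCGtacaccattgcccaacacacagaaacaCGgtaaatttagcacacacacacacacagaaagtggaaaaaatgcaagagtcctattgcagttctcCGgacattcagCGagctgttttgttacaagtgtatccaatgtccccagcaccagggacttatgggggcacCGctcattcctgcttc
Id4: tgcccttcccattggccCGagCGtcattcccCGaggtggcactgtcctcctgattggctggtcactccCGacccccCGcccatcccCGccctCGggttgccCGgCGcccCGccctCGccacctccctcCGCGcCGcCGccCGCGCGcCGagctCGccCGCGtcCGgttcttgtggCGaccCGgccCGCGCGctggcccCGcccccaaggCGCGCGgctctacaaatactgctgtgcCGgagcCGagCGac
The Stra8 window (chr6:34920698-34920947, plus strand) holds 5 CpG sites, against a median of 6 over 32851 windows of the same length. The Sohlh1 window (chr2:25847249-25847498, minus strand) holds 11. The Dmrtb1 window farthest upstream (chr4:107684231-107684480, minus strand) holds 7, and a second listed window of Dmrtb1 holds 21. The Id4 window (chr13:48260866-48261115, plus strand) holds 35, more than 97.0% of windows. The window of Sohlh2 holds 14 CpG sites, that of Rbm46 18, the windows of Kit 17 and 18, and that of Meioc 22. The Sohlh1 window has 5 matches to the E-box CANNTG, which basic helix-loop-helix factors bind, and 3 of them read CACGTG. The E-box occurs in 66.2% of all windows and its CACGTG form in 6.02%. AGGTCA, the half-site of retinoic acid receptor elements, matches at 2 places in the Stra8 window and at 1 in the Sohlh1 window, and in 14.0% of all windows. CNCCTCAG, a motif known from STRA8-bound promoters, matches once in the windows of Sohlh2 and Rbm46 and in 6.42% of all windows. Both strands were searched, and such matches describe letters only. These libraries hold no measurement of methylation or of binding.

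The deposited values are RPKM, reads scaled by gene length and by library total. The smallest steps between values fit the whole gene span for part of the low values only. They give a depth of about 11150000 and 4830000 steps in knockout replicates 1 and 2, against about 5840000 and 12850000 in control replicates 1 and 2. A step is taken to be a read or a read pair. A finer step fitted more of the low values, 53.3% to 55.7% against 42.4% to 44.4%. These depths and the steps given per gene could therefore be too low. Of the 24388 symbols, 9099 reached 1 RPKM in at least 2 of the 4 libraries and were tested with limma on log2(RPKM + 1), with Benjamini-Hochberg adjustment over all of them. A gene is called at an adjusted p below 0.05. Of the tested genes 43.3% were called higher and 30.5% lower in the knockout, and the groups did not overlap in 89.9% of tested genes. Among calls, 58.7% were higher as deposited, 75.9% with an equal RPKM sum, 46.3% with an equal median and 39.9% among genes at 5 RPKM. The median log2 fold change of all tested genes was 0.14 as deposited, 0.44 with an equal RPKM sum, -0.05 with an equal median and 0.01 with quantile normalization. Uhrf1 itself had 1.87 and 1.48 RPKM in the knockout libraries, against 3.11 and 3.29 in the control libraries (log2 fold change -0.65, limma adjusted p = 0.0031). The labels do not say whether replicates are different animals, and the p-values therefore rest on a spread between libraries that may be technical.

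Of the 10 regulators, 9 passed the filter, 5 were called higher in the knockout (Stra8, Ythdc2, Sohlh1, Sohlh2 and Dmrt1), 2 lower (Dmrtb1 and Id4) and 2 were not called (Meioc and Rbm46). Kit stayed below 1 RPKM in every library. Against a background of 43.3% and 30.5%, these counts do not set the 9 genes apart from the rest of the table, nor does the lack of overlap in 8 of them beside 89.9%. The median log2 fold change of the 9 was 0.48, against 0.14 for all tested genes. Both the median and the count of 5 include Dmrt1, which passed the filter through knockout libraries alone. In bulk RNA, fewer cells of a type and less RNA per cell cannot be told apart.

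**Figure D1:**
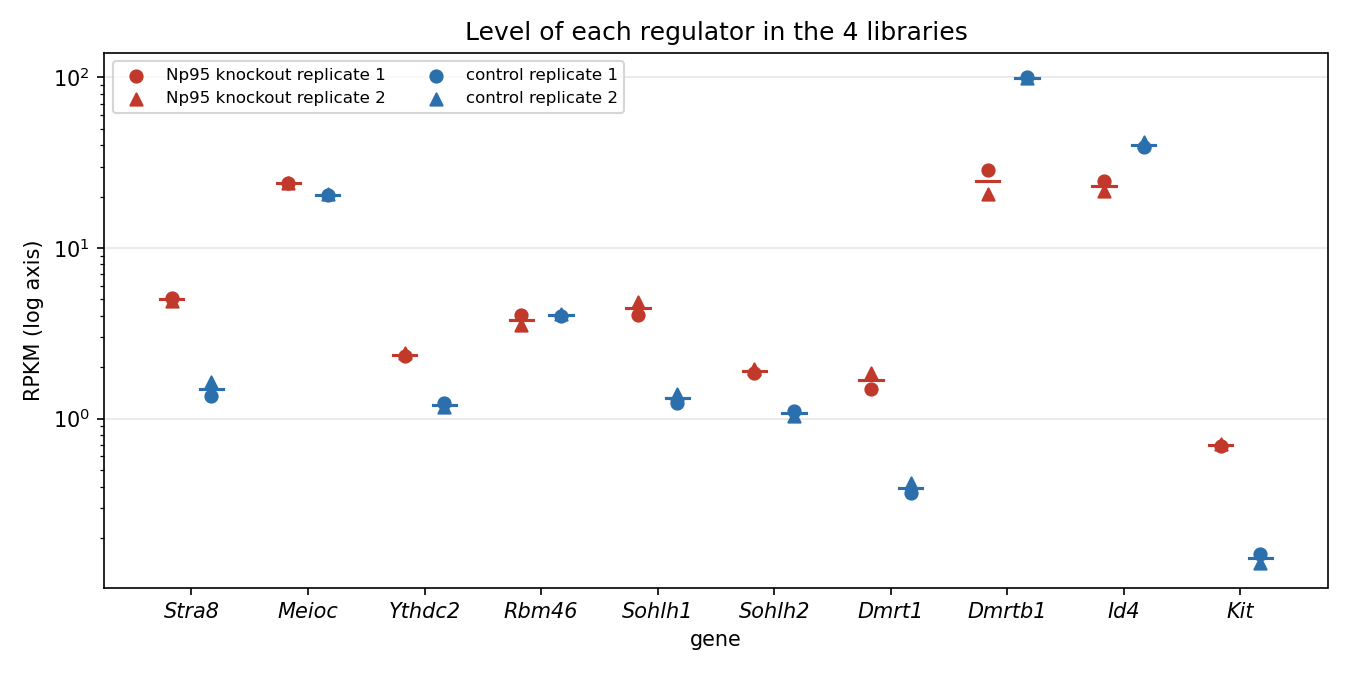
RPKM of the 10 regulators (log axis) in each library, with knockout libraries left of control libraries, circles for replicate 1, triangles for replicate 2 and a bar at each group mean. Dmrtb1 and Id4 lie lower in the knockout, Rbm46 overlaps, and the other 7 lie higher.

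Stra8 changed more than the RNA regulators Ythdc2, Meioc and Rbm46. Stra8 had 5.11 and 4.92 RPKM in the knockout libraries, against 1.36 and 1.63 RPKM in the control libraries. Both knockout libraries were above both controls, by 3.36-fold in the means, where 1094 and 456 steps of reads in the knockout stood against 152 and 402 in the control. Its log2 fold change of 1.27 (SE 0.09, 95% interval 1.05 to 1.5, limma adjusted p = 0.0014) exceeded that of 94.9% of tested genes. Ythdc2, an RNA helicase that binds m6A-marked transcripts, had 2.32 and 2.42 RPKM in the knockout libraries, against 1.23 and 1.17 RPKM in the control libraries. It was 1.98-fold higher, with no overlap (log2 fold change 0.62, SE 0.07, limma adjusted p = 0.0017). Meioc, the germ cell partner of YTHDC2, had 23.9 and 24.1 RPKM in the knockout libraries, against 20.4 and 20.7 RPKM in the control libraries. The Meioc libraries separated by group, yet the log2 fold change of 0.21 (95% interval -0.02 to 0.45, limma adjusted p = 0.082) lay 0.07 above the median of all genes and was not called. Its call depended on the scaling, with 0.61 at an equal RPKM sum (limma adjusted p = 0.0021) and 0.02 at an equal median (0.84). Rbm46, an RNA-binding protein of germ cells, had 4.07 and 3.52 RPKM in the knockout libraries, against 3.97 and 4.10 RPKM in the control libraries. It was the only regulator of the 10 whose groups overlapped, with a log2 fold change of -0.07 (95% interval -0.31 to 0.16, limma adjusted p = 0.50). At an equal RPKM sum Rbm46 turned to 0.26 (limma adjusted p = 0.041), and without knockout replicate 2 to 0.01 (limma adjusted p = 0.91).

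Both partners of the SOHLH pair were higher in the knockout, Sohlh1 by more than Sohlh2. Sohlh1 had 4.04 and 4.85 RPKM in the knockout libraries, against 1.24 and 1.40 RPKM in the control libraries. The lowest knockout value was well above the highest control value, with a 3.35-fold difference of means (log2 fold change 1.22, SE 0.10, limma adjusted p = 0.0014). Sohlh1 rests on few steps, about 191 and 100 in the knockout and 31 and 77 in the control. Sohlh2 had 1.85 and 1.94 RPKM in the knockout libraries, against 1.11 and 1.04 RPKM in the control libraries. Its log2 fold change was 0.48 (SE 0.07, limma adjusted p = 0.0030), 1.76-fold in the means and without overlap. A factor applied to a whole library cancels in a ratio of genes within it, which quantile normalization does not. The ratio of Sohlh1 to Sohlh2 RPKM was 2.19 and 2.49 in the knockout, against 1.12 and 1.36 in the control, 1.89-fold higher. In log2 fold change of RPKM + 1, a scale unlike that of the ratio, Sohlh1 exceeded Sohlh2 by 0.74 as deposited and by 0.82 with quantile normalization.

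The DM domain factors Dmrt1 and Dmrtb1 went opposite ways. Dmrt1 had 1.5 and 1.85 RPKM in the knockout libraries, against 0.369 and 0.420 RPKM in the control libraries. Both controls were below 1 RPKM, so Dmrt1 was tested only because the knockout libraries reached that level. The difference was 4.25-fold (log2 fold change 0.94, SE 0.09, limma adjusted p = 0.0014). Dmrtb1 had 28.7 and 20.6 RPKM in the knockout libraries, against 100.0 and 99.3 RPKM in the control libraries. The knockout libraries lay far below the controls and were farther apart from each other than the controls were. Its log2 fold change of -1.99 (SE 0.18, 95% interval -2.45 to -1.53, limma adjusted p = 0.0014) was undercut by 0.923% of tested genes. The ratio of Dmrtb1 to Dmrt1 RPKM within a library was 19.1 and 11.1 in the knockout, against 271 and 236 in the control, 16.8-fold lower. The log2 fold change of RPKM + 1 of Dmrtb1 minus that of Dmrt1 was -2.93 as deposited and -2.0 with quantile normalization. That scale understates the change of a low gene such as Dmrt1, so these gaps are not the ratio in another form. Dmrt1 is also made by Sertoli cells, whose factor Sox9 had 8.41 and 14.9 RPKM in the knockout libraries, against 1.15 and 1.63 RPKM in the control libraries. The ratio of Dmrt1 to Sox9 was 0.179 and 0.125 in the knockout, against 0.322 and 0.258 in the control. The part of Sertoli cells in the Dmrt1 level was not tested.

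Id4 was lower in the knockout, and Kit read higher at very low levels. Id4 had 24.6 and 21.6 RPKM in the knockout libraries, against 39.0 and 41.7 RPKM in the control libraries. Both knockout libraries were below both controls, 1.75-fold in the means (log2 fold change -0.78, SE 0.11, limma adjusted p = 0.0028). With quantile normalization it was -0.28 (limma adjusted p = 0.058), so the call ended there. On the opposite strand, an antisense RNA, A330033J07Rik, and a long noncoding RNA, Gm49291, overlap Id4. A330033J07Rik had 0.187 and 0.191 RPKM in the knockout libraries, against 0.307 and 0.319 RPKM in the control libraries, and Gm49291 has no row among the symbols measured. Without strand, reads of either cannot be told from those of Id4. Kit had 0.688 and 0.708 RPKM in the knockout libraries, against 0.161 and 0.142 RPKM in the control libraries. The ratio of Kit means was 4.60, from about 627 and 279 steps in the knockout and 77 and 150 in the control. With all 24388 symbols tested and no filter, the log2 fold change of Kit was 0.56 (limma adjusted p = 0.022), where 27.8% of symbols were called higher. Kit is also expressed by Leydig cells, whose listed genes summed to 56.1 and 46.9 RPKM in the knockout and 17.8 and 17.3 in the control. Their part in the Kit level was not tested.

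**Figure D2:**
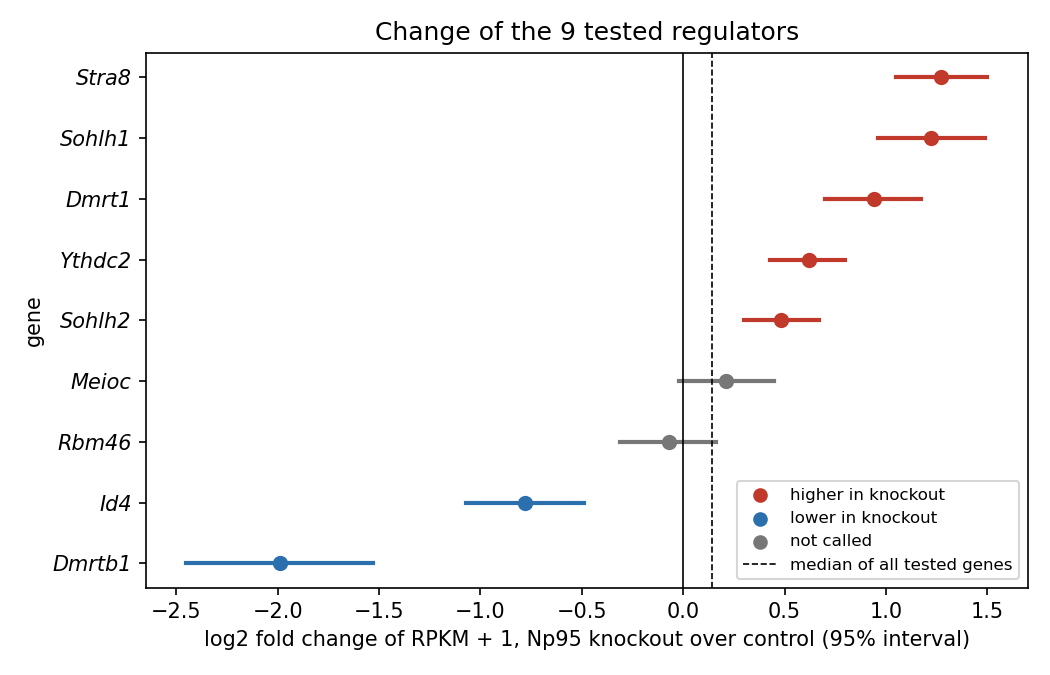
Log2 fold change of RPKM + 1, knockout over control, with its 95% interval from limma for the 9 tested regulators, and the median of all tested genes as a dashed line. Stra8 at 1.27 and Dmrtb1 at -1.99 are the ends of the range, and the intervals of Meioc and Rbm46 include 0. The upper end depends on the pseudocount, since at 0.1 Dmrt1 was 1.84 and Stra8 1.69.

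Stra8 to Meioc was 0.214 and 0.205 in the knockout, against 0.0665 and 0.0787 in the control, 2.88-fold higher. Ythdc2 to Meioc, the ratio of partners, was 0.0968 and 0.101 in the knockout, against 0.0602 and 0.0562 in the control, 1.70-fold higher, an order that depended on the scaling. Rbm46 to Meioc was 0.170 and 0.146 in the knockout, against 0.195 and 0.198 in the control. In each of these ratios the groups did not overlap, which sets them little apart, since single tested genes did not overlap in 89.9% of cases. The share among other pairs of genes was not computed, and these pairs were chosen after their values were seen. With quantile normalization the log2 fold change of RPKM + 1 was 0.62 for Meioc beside 0.37 for Ythdc2, so their order turned round on that scale. The scale understates the change of the low gene Ythdc2 more than that of Meioc, unlike a ratio of RPKM. The excess of Stra8 over Meioc in log2 fold change was 1.06 as deposited and 0.48 with quantile normalization, and Rbm46 minus Meioc was -0.29 and -0.83. These ratios show unequal change and not which gene moved. Exact permutation of 2 against 2 libraries cannot go below p = 0.333, so they were not tested.

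**Figure D3:**
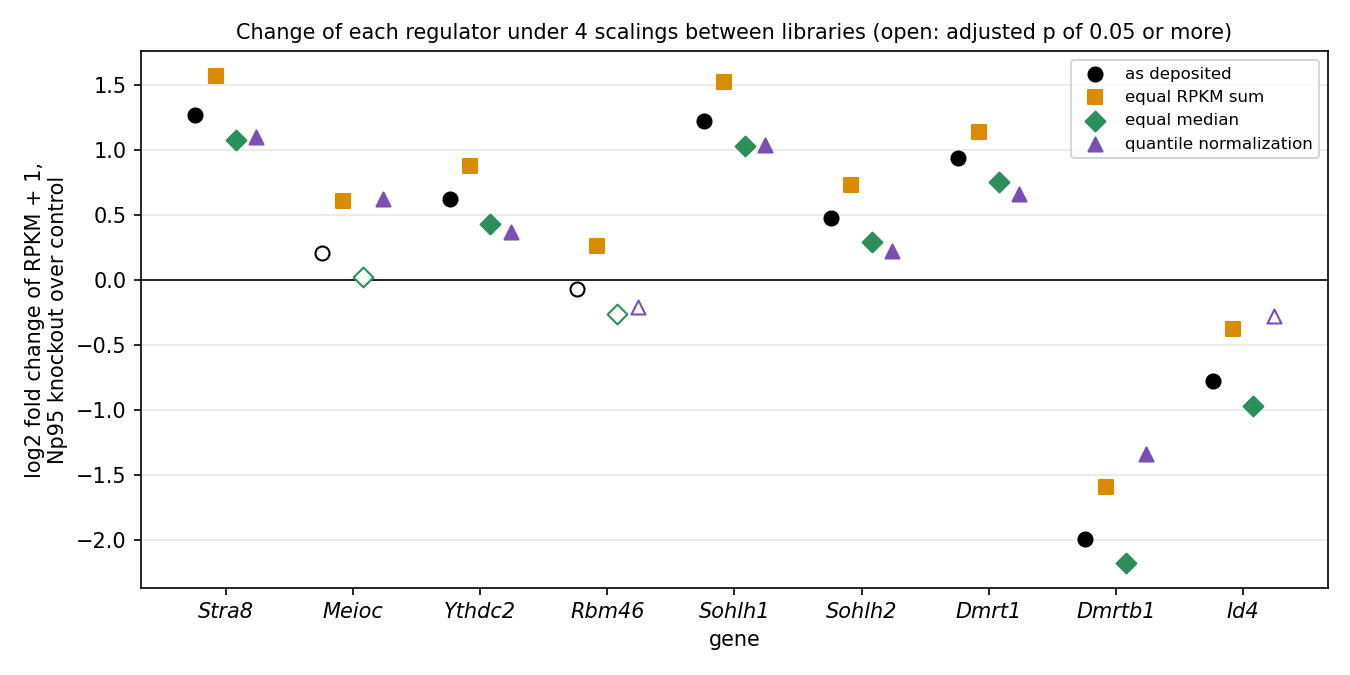
Log2 fold change of each tested regulator, knockout over control, under 4 scalings between libraries, with open symbols for an adjusted p of 0.05 or more. Stra8, Ythdc2, Sohlh1, Sohlh2, Dmrt1 and Dmrtb1 keep their direction and call under the 4 scalings, while the calls of Meioc, Rbm46 and Id4 change.

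The low values point to a division of RPKM by gene span, introns included, though only 42.4% to 44.4% lay near whole steps. Levels of the regulators were therefore set in order only after rescaling to the longest coding transcript in GENCODE. This assumes that the RPKM of these genes divide by span, which was not checked for them, and that the reads lie in exons. On this rescaled RPKM, Dmrtb1 led both groups, at 367 in the knockout and 1480 in the control. In the knockout it was followed by Meioc (88.6), Rbm46 (71.8), Dmrt1 (70.8), Stra8 (53.4), Id4 (29.5), Sohlh2 (22.4), Ythdc2 (20.4), Sohlh1 (14.7) and Kit (10.9). In the control the order after Dmrtb1 was Rbm46 (76.3), Meioc (75.9), Id4 (51.5), Dmrt1 (16.6), Stra8 (15.9), Sohlh2 (12.7), Ythdc2 (10.3), Sohlh1 (4.37) and Kit (2.37). Neighbours whose library values overlapped were Rbm46 and Dmrt1 in the knockout, and Rbm46 and Meioc, and Dmrt1 and Stra8, in the control. These assumptions weigh most on Dmrt1, whose span is 42.2 times its transcript, and least on Id4, at 1.28 times.

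The pattern nearest to that of Stra8 over the 4 libraries, by Euclidean distance of centred log2 values, was that of Mageb4, with 5.79 and 5.73 RPKM in the knockout and 1.61 and 1.79 in the control. Chchd10 and Rrm2 came next, at distances of 0.0723 and 0.0755 against 0.0721 for Mageb4. Among the other regulators Sohlh1 was nearest, at a distance of 0.196 and in place 121. With 4 libraries in 2 groups, this measure reflects little beyond the size of the group difference.

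Other genes of these steps were described from lists, by counts beside the background of 43.3% higher and 30.5% lower. Of 20 genes of undifferentiated spermatogonia, 17 were below the filter, and Taf4b and Pou3f1 were called higher and Utf1 not called. Both called genes were below 1 RPKM in the controls and reached the filter through knockout libraries alone. Taf4b, a transcription cofactor of germ cells, had 1.19 and 1.29 RPKM in the knockout, against 0.557 and 0.498 in the control. Over all 20, both knockout libraries were above both controls in 11 and below in 1, and the median ratio was 2.52, where both knockout libraries were above both controls in 46.1% and below in 21.9% of all 24388 symbols. With quantile normalization 0 of the list were called, and with no filter 10 were called higher, beside 27.8% of all symbols. Id4, named above as a marker of stem spermatogonia, was lower in the knockout, unlike those 11 genes. Which cells its RNA came from was not tested. For differentiating spermatogonia 5 of 5 tested genes were higher and Dnmt3b was below the filter. Sox3, an X-linked factor of spermatogonia, had 9.60 and 13.7 RPKM in the knockout, against 2.19 and 2.85 in the control. Rhox13, Crabp1 and Ccnd2 were 3.76-fold, 2.79-fold and 4.78-fold higher, and Ccnd2 reached the filter through knockout libraries alone.

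In the early meiotic programme, 10 of 15 tested genes were higher and Spo11, the nuclease of meiotic breaks, was lower. Sycp2, Sycp3, Hormad1 and Stag3, of the chromosome axis, were not called. Tex15 (4.79-fold), Prdm9 (5.68-fold), Dmc1 (4.47-fold) and Ccnb3 (8.06-fold) had the smallest p. Of the 10 called higher, 5 reached the filter through knockout libraries alone: Prdm9, Dmc1, Ccnb3, Rad21l and Ugt8a. With these 5 included, the median log2 fold change of the tested genes was 0.85, against 1.27 for Stra8. Without knockout replicate 1, and with an equal median, 2 genes of this list were lower, and with an equal RPKM sum the call of Spo11 ended (log2 fold change -0.32, limma adjusted p = 0.051).

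All 8 tested genes of m6A marking and reading were higher, at a median log2 fold change of 0.63 beside 0.62 for Ythdc2. With an equal median, and with quantile normalization, 6 were called higher, as Ythdf2 and Ythdf3 lost their calls. Some calls also ended without control replicate 1 or control replicate 2. Ythdf1, an m6A reader, had 9.11 and 10.5 RPKM in the knockout, against 3.58 and 3.83 in the control. The demethylase gene Alkbh5 was 2.31-fold higher, the methyltransferase gene Mettl14 2.13-fold and its adaptor Wtap 2.26-fold. The cyclins moved both ways, with 5 of 7 higher, Ccnb2 lower and Ccne2 not called, and 3 were higher without control replicate 1 or with an equal median. Of those called higher, Ccnd2 is the gene that passed through the knockout only. Ccna2, the cyclin whose transcript the MEIOC and YTHDC2 complex is known to turn down, had 7.56 and 8.28 RPKM in the knockout, against 3.46 and 3.81 in the control. Ccnb2 had 5.45 and 4.42 RPKM in the knockout, against 10.7 and 10.9 in the control. Ccnd1 was 5.15-fold higher.

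Most relatives of Id4 and of the DMRT genes went the other way from Id4 and Dmrtb1. Id1, Id2 and Id3 were called higher under each of the 4 scalings, and so was Tcf3, which codes for an E protein that ID proteins bind. Id1 had 4.22 and 5.04 RPKM in the knockout, against 1.04 and 1.13 in the control, while Tcf4 and Tcf12 were below the filter. Dmrta1 had 10.5 and 12.8 RPKM in the knockout, against 2.0 and 2.71 in the control. Dmrtc1a and Dmrtc1b, related copies between which the counting could split reads, are uncertain. They were 2.22-fold and 1.94-fold higher, Dmrtc1b passed through the knockout only, and its call ended with an equal median (limma adjusted p = 0.064), with quantile normalization (0.34), with no filter (0.085) and without control replicate 1 (0.071) or control replicate 2 (0.063). Dmrtc2 had 18.2 and 15.3 RPKM in the knockout, against 24.5 and 23.8 in the control (limma adjusted p = 0.012), a call that ended without control replicate 1 (0.085), without control replicate 2 (0.069), with an equal RPKM sum (0.39) and with quantile normalization (0.54). Of 11 genes of KIT signalling, 5 passed the filter, 4 were higher and Pik3ca was not called, with 1 higher under quantile normalization, 2 without control replicate 2 and 8 with no filter. Of the called genes, Rps6kb1 passed through the knockout libraries only. Akt1, a kinase downstream of KIT, had 4.59 and 5.27 RPKM in the knockout, against 1.53 and 1.47 in the control. Kitl, the KIT ligand of Sertoli cells, had 0.721 and 1.25 RPKM in the knockout, against 0.139 and 0.184 in the control.

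Markers of other cells moved with the groups, and the 2 genes named as highest in a list are those of highest deposited RPKM, not rescaled to transcripts. Of 12 pachytene genes, 11 were lower and Mybl1 higher, and their summed RPKM was 790 and 622 in the knockout, against 1740 and 1690 in the control. Hspa2 and Ybx2 had the highest RPKM in that list. Of 11 spermatid genes, 4 passed the filter and all 4, Acr, Tssk1, Tnp2 and Crem, were lower. All 11 tested Sertoli cell genes were higher, with a summed RPKM over the 14 listed of 206 and 269 in the knockout, against 62.5 and 77.9 in the control, with Clu and Inha highest. Of these 11, Wt1, Gata4 and Trf reached the filter through knockout libraries alone. Leydig cell genes were higher in 4 of 5 cases, with Insl3 and Star highest, Cyp17a1 not called and Cyp11a1 passing through the knockout only. All 4 tested macrophage genes, with C1qa and C1qc highest, were higher, 2 of them (C1qb and Cd68) passing through the knockout only, and of the peritubular genes Tagln was higher and Acta2 was below the filter. Endothelial genes were all below the filter, with Cdh5 and Kdr highest. Dissociation and stress genes were higher in 8 of 8 tested, with a sum of 44.4 and 63.7 RPKM in the knockout, against 12.1 and 15.5 in the control, with Ier2 and Jun highest and with Fos and Dusp1 passing through the knockout only. Some of these calls ended when a single library was left out. Without control replicate 1 these were Hspa2 (limma adjusted p = 0.085), Mybl1 (0.12), C1qa (0.11) and Tagln (0.069), and without control replicate 2 they were Hspa2 (0.081), Mybl1 (0.076), Star (0.14), Cyp11a1 (0.14) and Dusp1 (0.055). C1qa (0.09) and Cyp11a1 (0.062) lost their calls without knockout replicate 1, as did Star (0.12) without knockout replicate 2. With quantile normalization Hspa2 turned to a log2 fold change of 0.05 (limma adjusted p = 0.57), and the calls of Ybx2 (0.053), Piwil1 (0.059), Mybl1 (0.074), C1qa (0.11), Star (0.11), Cyp11a1 (0.37), Tagln (0.082) and Dusp1 (0.18) ended, which left 8 pachytene genes lower and 2 Leydig cell genes higher. With an equal median the calls of Mybl1 (0.14), C1qa (0.073), Star (0.098), Cyp11a1 (0.14) and Tagln (0.059) ended. With no filter those of Hspa2 (0.28), C1qa (0.16), Star (0.18), Cyp11a1 (0.14), Dusp1 (0.057), Dhh (0.055), Fos (0.071), Ier2 (0.054), Junb (0.052) and Tnp2 (0.092) ended. No gene of these lists was at 0 in all 4 libraries. Their part in the differences of the 10 regulators was not tested.

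**Figure D4:**
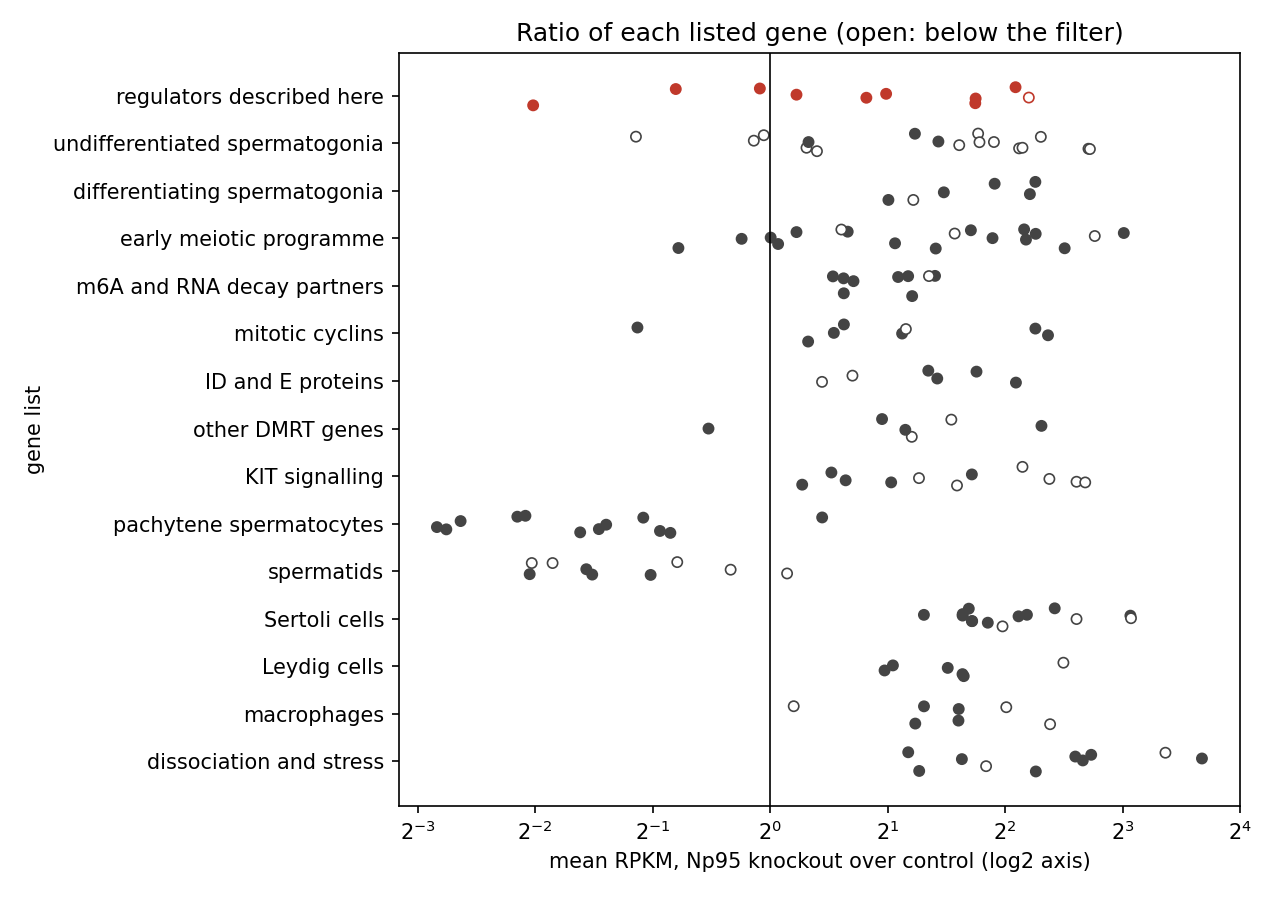
Ratio of mean RPKM, knockout over control, for the 10 regulators (top, red) and for each listed gene above 0 in all libraries (log2 axis). Open circles mark genes below the filter, and the peritubular and endothelial lists are not drawn. The regulators span from 0.247 for Dmrtb1 to 4.60 for Kit, while 11 of 12 pachytene genes lie left of 1 and all Sertoli cell genes lie right of it.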

How the data were processed

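Poly(A) RNA-seq libraries were read as 50-bp pairs, per the labels' protocols. The deposited table holds RPKM values of the authors, 1 column per library. The submitters' processing notes name Bowtie2 and mm9, and the counting program is not given in the sources used here. Low RPKM multiplied by RefSeq gene span lay within 0.05 of whole steps in 42.4% to 44.4% of values, where 10% do so by chance. Whole reads were not recovered, so no count test was run, and steps give approximate depth only.

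Of 24444 rows, 27 with a date for a symbol and 29 repeats of a symbol (lower mean) were left out. Genes at 1 RPKM or more in at least 2 of 4 libraries were tested with limma 3.58.1 (R 4.3.3) on log2(RPKM + 1) with a mean-variance trend, two-sided, which understates the change of low genes. Values are given per library, with n = 2 per group. The members and lists were chosen with earlier results of these data known. Named besides the members are Uhrf1, the 3 genes nearest to Stra8, up to 4 called genes with the smallest p per pathway list, the 2 genes of highest RPKM in each cell type list, and genes that a small count calls for or that bear on a result (Sox9, Kitl, A330033J07Rik, Mybl1, Tnp2, Crem, Cyp17a1, and genes whose calls ended or that passed the filter through the knockout only), chosen after their values were seen, as were the pairs of genes set in ratio. Alternatives were pseudocounts of 0.5 and 0.1, other filters and scalings, no trend, a replicate block, summed repeats and each library left out.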

Additional observations from a re-analysis of the deposited data

How the results depend on the processing

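The calls of Stra8, Ythdc2, Sohlh1, Sohlh2, Dmrt1 and Dmrtb1 held in every alternative that tested them, with log2 fold changes of 1.08 to 1.69 for Stra8, 0.37 to 0.93 for Ythdc2, 1.03 to 1.67 for Sohlh1, 0.22 to 0.76 for Sohlh2, 0.66 to 1.84 for Dmrt1 and -2.22 to -1.34 for Dmrtb1. The highest adjusted p among these was 0.034. Where a library was left out, its group had 1 library, which is assumed to vary like those of the other group, from which alone the spread came. Rbm46 changed sign with an equal RPKM sum (0.26) and without knockout replicate 2 (0.01), with -0.16 to 0.01 over the libraries left out. Meioc was called with no filter (0.21), no trend (0.21), an equal RPKM sum (0.61) and quantile normalization (0.62), and Id4 lost its call with quantile normalization (-0.28). At 5 RPKM, 0 regulators were called higher, since Meioc, Dmrtb1 and Id4 alone pass that filter. With quantile normalization 1 was called lower. Over all genes, 6790 of 24388 were higher with no filter, and 1080 were higher and 1629 lower of 3468 at 5 RPKM. With an equal RPKM sum 1698 of 9099 were lower, against 3943 higher and 2776 lower of 9099 as deposited. Over the pathway lists, 12 were higher at 5 RPKM and 1 was lower with an equal RPKM sum, against 40 and 3. These list counts have no tested total beside them and are not read as shares. Fewer genes are tested at 5 RPKM, and the cause of the other shifts was not tested. Deviations of same-numbered libraries correlated at 0.11 across genes, and the labels name no shared origin. With a replicate block, 3868 genes were higher and 2721 lower, with 5 regulators higher and 2 lower. Control replicate 1 and knockout replicate 2 are the shallowest libraries, which limits Sohlh1 and Kit most.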
